A study of Mus musculus with 16 samples.

Results

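Transcripts of 36 genes of sterol and fatty acid metabolism were followed in mouse bone-marrow derived macrophages given interferon-gamma. The members are a list of gene symbols, matched to the platform's annotation and drawn up with earlier results of these data known. They hold the enzymes of cholesterol synthesis, the SREBP and LXR regulators with some of their targets, the enzymes of fatty acid synthesis and desaturation, the cholesterol 25-hydroxylase Ch25h, and the peroxisomal transporter Abcd2. Of the 36 members 35 were measured, among 19938 genes in all, and Acat2 was not analysed here. The macrophages came from mice that carry an H3.3-HA knock-in, an epitope tag on the histone variant H3.3, in every group, and were grown in L-cell conditioned medium. Naive cells were measured at 0 h (4 arrays) with no earlier interferon, as far as the titles tell, and after 3 h and 6 h of interferon-gamma (2 arrays each). Pretreated cells, whose titles name an earlier interferon exposure, were measured at 0 h with 4 arrays and at 3 h and 6 h with 2 each. The sources used here give neither the dose, the length of the pretreatment or any rest after it, nor the age and number of mice. The labels do not say whether arrays of a group came from separate cultures or animals, so the p-values measure the spread between these arrays only, which may be technical. No cells were kept for 3 h or 6 h without interferon, so the effect of interferon and that of culture time cannot be told apart.

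Cells make cholesterol from acetyl-CoA through mevalonate, squalene and lanosterol. When membrane sterol is low, the SREBP transcription factors are released from the INSIG proteins in the endoplasmic reticulum and switch on these enzymes together with those of fatty acid synthesis. When sterol is plentiful, oxysterols hold SREBP back and switch on the LXR receptors, which raise the sterol exporters ABCA1 and ABCG1. Macrophages exposed to interferon are known to make the oxysterol 25-hydroxycholesterol through CH25H, which is also a well-known interferon-stimulated gene.

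The windows before the start sites of 6 members are shown because the results turn on these genes: 3 enzymes that were higher on replicate 1 than on replicate 2 of the naive cells in array set 1 (Hmgcs1, Idi1, Cyp51), the hydroxylase Ch25h, and the enzymes Pmvk and Ebp, which rose with interferon while most other enzymes of their pathway were not called. The sequences are the 250 bases before a start site from RefSeq on GRCm38.p6, written 5′ to 3′ on the gene's strand, and 27 of the 36 members had at least 1 entry (35 windows). Capitals mark matches, on either strand, to 4 letter patterns. These are the SREBP site TCACNCCAC, the NF-Y box CCAAT, the GAS element TTCNNNGAA and the interferon-stimulated repeat GAAANNGAA.
Hmgcs1, chr13:119690101-119690350, plus strand: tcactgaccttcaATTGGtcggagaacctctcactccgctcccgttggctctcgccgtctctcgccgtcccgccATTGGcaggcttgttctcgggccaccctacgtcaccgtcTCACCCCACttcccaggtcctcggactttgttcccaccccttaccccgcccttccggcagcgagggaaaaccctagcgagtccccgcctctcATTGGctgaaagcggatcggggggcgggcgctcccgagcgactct
Idi1, chr13:8885356-8885605, plus strand: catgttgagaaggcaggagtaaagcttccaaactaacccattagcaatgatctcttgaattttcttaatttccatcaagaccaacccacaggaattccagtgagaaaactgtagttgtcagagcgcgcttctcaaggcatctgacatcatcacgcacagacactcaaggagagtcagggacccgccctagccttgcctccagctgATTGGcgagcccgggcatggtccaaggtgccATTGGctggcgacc
Cyp51, chr5:4104698-4104947, minus strand: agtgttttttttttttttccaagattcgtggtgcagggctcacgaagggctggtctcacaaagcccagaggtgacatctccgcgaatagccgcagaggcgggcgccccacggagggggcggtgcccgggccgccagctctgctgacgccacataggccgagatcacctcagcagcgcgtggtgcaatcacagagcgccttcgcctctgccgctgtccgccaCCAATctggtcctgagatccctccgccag
Pmvk, chr3:89454291-89454540, plus strand: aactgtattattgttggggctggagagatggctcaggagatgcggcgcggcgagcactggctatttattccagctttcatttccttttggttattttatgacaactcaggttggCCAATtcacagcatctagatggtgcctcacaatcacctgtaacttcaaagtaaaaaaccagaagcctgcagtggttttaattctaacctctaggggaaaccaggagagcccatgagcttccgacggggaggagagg
Ebp, chrX:8193513-8193762, minus strand: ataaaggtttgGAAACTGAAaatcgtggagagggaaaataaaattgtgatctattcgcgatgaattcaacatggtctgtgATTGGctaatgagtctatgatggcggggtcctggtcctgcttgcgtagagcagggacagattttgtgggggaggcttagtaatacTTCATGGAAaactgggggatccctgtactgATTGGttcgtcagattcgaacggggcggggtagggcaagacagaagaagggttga
Ch25h, chr19:34475149-34475398, minus strand: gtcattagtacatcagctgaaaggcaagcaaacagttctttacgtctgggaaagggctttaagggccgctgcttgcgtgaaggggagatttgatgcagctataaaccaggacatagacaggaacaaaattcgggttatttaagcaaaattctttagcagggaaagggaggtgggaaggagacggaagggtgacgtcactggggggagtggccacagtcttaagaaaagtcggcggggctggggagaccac

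The NF-Y box, bound by a factor known to work beside SREBP at sterol genes, was present in 21 of the 35 member windows and in 20 of the 27 genes, against 33.85% of all 32851 windows. The SREBP site, as the 1 pattern searched, was found in 1 member, Hmgcs1, 137 bases before the start, against 1.05% of all windows. For the other members this says only that these letters are not in their windows. Idi1 held NF-Y boxes 45 and 14 bases before its start, Cyp51 held 1 at 29 and Pmvk held 1 at 136, while the other Pmvk window held none. Ebp was the only gene of the 27 with a GAS element (85 bases before the start) or an interferon-stimulated repeat (239 bases before it), patterns held by 7.02% and 7.13% of all windows. No pattern overlapped another in the 6 windows shown, and the Ch25h window held none, which says only that these letters are not in this window. A match is a description of letters and was not tested as a binding site.

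The arrays fall into 2 sets of 8 by the numbering in their titles. Set 1 holds the 6 h arrays and set 2 the 3 h arrays, each with its own 0 h arrays (replicates 1 and 2 in set 1, 3 and 4 in set 2). Within a set the groups repeat in the same order over positions 1 to 4 and 5 to 8, and each of these runs holds 1 array of each group. The labels tie a run to no culture, animal or day, so differences taken inside a run pair the arrays by assumption. Column medians lay between 7.151 and 7.226 in set 1 and between 6.886 and 6.997 in set 2, so changes were taken within a set, and 3 h cannot be told apart from 6 h without the set. The interferon-inducible genes Cxcl9, Socs1 and Irf1 rose in naive cells at both times (log2 changes of 7.32, 4.25 and 2.93 at 3 h), and Cxcl9 was 5.59 higher in pretreated than in naive cells at 0 h. All 9 measured macrophage markers had a mean over 6.5 on the log2 scale, the limit used here for a dim signal. Of 19938 genes tested, 13108 were at or over this limit, so passing it does not by itself identify a cell type. Of the other cell types looked for, the fibroblast and adipocyte lists each had 3 of 5 measured markers over that limit, and the neutrophil list 2 of 5. The T and NK cell and B cell lists each had 2 of 4, the erythroid list 1 of 2 and the dendritic list 4 of 5. Replicates of a group within a set correlated across genes at 0.9896 to 0.995.

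Ch25h, the enzyme that makes 25-hydroxycholesterol, had the widest range of all members, from 6.05 to 12.2 on the log2 intensity scale. In set 1 its level was 6.05 and 6.35 on the naive 0 h arrays and 10.71 and 11.87 at 6 h. The 6 h arrays lay far above the 0 h arrays, with no overlap. The log2 change was 5.09 ± 1.08 (SE of the fit, n = 2 against 2, adjusted p = 0.00533, limma with Benjamini-Hochberg adjustment over all genes), where the 0 h mean of 6.20 was under the dim limit, so the size of the rise is uncertain. In set 2 the naive 0 h arrays gave 6.17 and 9.45 and the 3 h arrays 10.67 and 11.77. The 0 h array at 9.45 stood far above the other 3 naive 0 h arrays, yet both 3 h arrays were higher than it. The pretreated 0 h arrays of set 2 differed in the same way, at 7.68 and 10.84. In every group of both sets Ch25h was lower on the array of positions 1 to 4 than on that of positions 5 to 8. The log2 differences ran from -0.31 to -3.28, and what set the runs apart was not tested. The log2 change at 3 h was 3.41 ± 1.08 and was not called (adjusted p = 0.108). Within the array runs Ch25h was higher after interferon every time, by 4.66 and 5.52 at 6 h and by 4.50 and 2.32 at 3 h.

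Pretreated cells held more Ch25h signal than naive cells of the same array run at 0 h in all 4 runs, by 0.53, 1.55, 1.51 and 1.40, but the mean difference of 1.25 ± 0.77 was not called (adjusted p = 0.794). Their 0 h levels were 6.58 and 7.90 in set 1 and 7.68 and 10.84 in set 2, overlapping the naive range of 6.05 to 9.45. At 6 h the pretreated arrays read 9.96 and 11.35, and at 3 h 10.92 and 12.20. These values overlapped those of naive cells at the same time. The change in pretreated cells was 3.42 ± 1.08 at 6 h (adjusted p = 0.106) and 2.30 ± 1.08 at 3 h (adjusted p = 0.389). The pretreated change minus the naive change was -1.67 at 6 h, with a 95% confidence interval from -5.01 to 1.66, and -1.11 at 3 h (-4.45 to 2.22), so these arrays can show neither a weaker nor an equal response. Of 5 dendritic markers 2 rose with Ch25h in naive cells of set 1, Clec9a by 4.44 ± 0.39 and Xcr1 by 1.10 ± 0.28, while Flt3, Zbtb46 and Ccr7 were not called. The summed log2 level of the 5 was 32.2 to 32.5 at 0 h and 37.7 at 6 h, and their part in the Ch25h change was not tested.

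**Figure D1:**
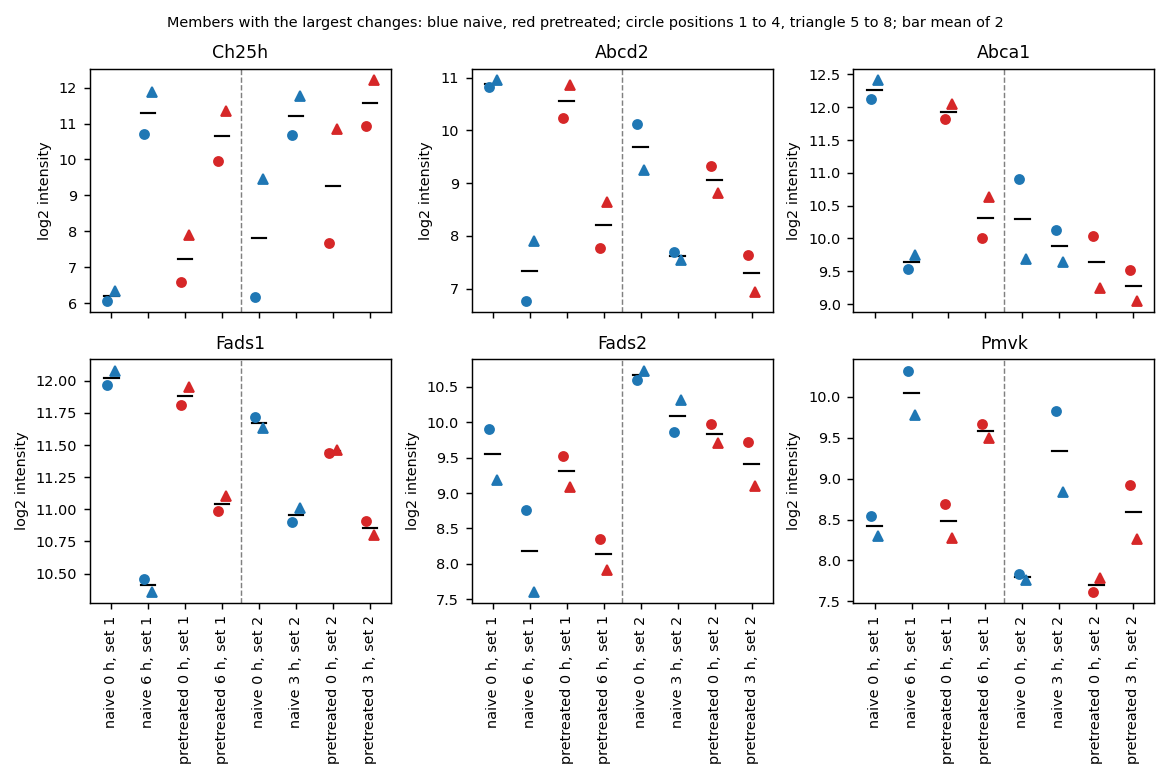
Log2 intensity of 6 members on each array, by group and array set (blue naive, red pretreated). Circles are arrays at positions 1 to 4 of a set, triangles arrays at positions 5 to 8, and bars means of 2 arrays. The dashed line parts the sets. Ch25h and Pmvk are higher at 6 h than at 0 h in set 1, and Abcd2, Abca1 and Fads1 are lower. For Ch25h the 2 0 h arrays of set 2 differ in naive cells (6.17 and 9.45) and in pretreated cells (7.68 and 10.84).

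Of the 17 measured enzymes of cholesterol synthesis, 2 rose and 2 fell in naive cells at 6 h, and the other 13 were not called. With 7.48% of all genes called as higher and 10.8% as lower, these counts are near the background and are no result about the enzymes as a group. Pmvk, which adds the second phosphate to mevalonate, rose by 1.63 ± 0.30 (3.1-fold, adjusted p = 0.00205). Its levels were 8.54 and 8.3 at 0 h and 10.32 and 9.78 at 6 h. Both 6 h arrays were above both 0 h arrays. Ebp, a sterol isomerase late in the pathway, rose from 10.02 and 9.99 to 10.41 and 10.45 (0.42 ± 0.12, adjusted p = 0.0259). Mvk, the kinase that acts just before Pmvk, fell from 9.53 and 9.36 to 8.98 and 8.74 (-0.59 ± 0.15, adjusted p = 0.0173). Dhcr7, the reductase of the last step, fell from 9.26 and 8.75 to 8.36 and 8.26 (-0.69 ± 0.19, adjusted p = 0.0204). The groups of these 3 genes did not overlap, but the changes were small and their calls rested on single arrays. Ebp lost its call with any 1 of its 4 arrays left out (adjusted p up to 0.128), Mvk when replicate 1 of naive 0 h or replicate 2 of naive 6 h was dropped (up to 0.137), and Dhcr7 when the same 0 h array or any 6 h array was dropped (up to 0.213). Among the enzymes not called, Mvd, Fdps and Fdft1, which lead from mevalonate to squalene, Lss, which closes the sterol ring, and Tm7sf2, Nsdhl and Sc5d, which act on the ring and its methyl groups, changed by between -0.11 and 0.18. Msmo1 and Hsd17b7, which take part in removing methyl groups, changed by 0.59 ± 0.43 and 0.64 ± 0.52. Mvk and Pmvk, which act in turn, moved in opposite directions at 6 h.

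At 3 h in naive cells Pmvk was the only member of all 35 called as higher, by 1.54 ± 0.30 (2.9-fold, adjusted p = 0.00831), where 3.37% of all genes were. Changes of 7 members were positive and of 28 negative, and the change of Ch25h, 3.41, was larger but not called. Pmvk levels were 7.84 and 7.76 at 0 h and 9.83 and 8.84 at 3 h. The 3 h arrays differed from each other by more than the 0 h arrays did, and both stood above them. In pretreated cells Pmvk went from 7.62 and 7.79 to 8.92 and 8.26 at 3 h (0.89 ± 0.30, adjusted p = 0.181) and from 8.69 and 8.27 to 9.67 and 9.50 at 6 h (1.11 ± 0.30, adjusted p = 0.0521). All 4 pretreated arrays after interferon lay above their 0 h arrays, yet neither change was called. For pretreated cells the Ebp level was 10.46 and 10.20 at 3 h, 10.41 and 10.34 at 6 h, and was called at neither time. The Pmvk call in naive cells at 3 h was lost when replicate 4 at 0 h or replicate 1 at 3 h was dropped (adjusted p up to 0.0858).

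The rest of the enzymes were set apart by differences between arrays of the same group. In naive cells of set 1 at 0 h all 17 enzymes were higher on replicate 1 than on replicate 2, with a median log2 difference of 0.77 and 6 of 17 over 1. Over all genes the median difference between these arrays was 0.01, and 0.88% of genes exceeded 1. At 6 h 16 of 17 were higher on naive replicate 1, with a median of 0.99 and 8 over 1, against 1.21% of all genes. The squalene epoxidase Sqle read 9.77 and 7.85 at 0 h and 10.40 and 8.31 at 6 h, and the demethylase Cyp51 read 9.12, 7.70, 10.19 and 8.06 on the same arrays. The isomerase Idi1 read 10.26 and 8.61 at 0 h and 11.17 and 9.31 at 6 h. Each of these genes differed more between replicates than between 0 h and 6 h. Pretreated arrays of set 1 showed the same order with smaller medians, 0.27 at 0 h (16 of 17 higher on replicate 1) and 0.35 at 6 h (17 of 17). All genes leaned the same way on these arrays, with medians of 0.10 and 0.05 and with 64.3% and 60.9% higher on replicate 1. In set 2 the enzyme medians, as the array at the lower position minus the other, were -0.21 and 0.05 in naive cells at 0 h and 3 h. In pretreated cells they were -0.09 and 0.27. The LXR genes Nr1h3, Abca1, Abcg1 and Mylip were all higher on the array at the lower position in every group of set 2. Their medians were 1.10 and 0.66 in naive cells and 0.86 and 0.64 in pretreated cells, against -0.04 to 0.07 over all genes. What differed between these arrays was not tested.

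If the arrays of a run are assumed to belong together, which the labels do not state, changes can also be taken inside a run. Idi1 went up by 0.91 and 0.70 at 6 h in the 2 runs, Sqle by 0.62 and 0.46, and Hmgcs1, the enzyme that makes HMG-CoA, by 0.44 and 0.42, where the fitted changes of 0.81 ± 0.58, 0.54 ± 0.66 and 0.43 ± 0.40 were not called. Cyp51 went up by 1.07 and 0.36. Of the 17 enzymes 9 were higher in both runs and 6 lower in both, against 33.4% and 39.3% of all genes. In pretreated cells at 6 h 3 of 17 were higher in both runs and 9 lower in both, against 26.8% and 38.7% of all genes.

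The regulators of the pathway were not called in naive cells at 3 h or 6 h. Srebf1, which drives fatty acid genes, kept the narrowest range of all members, from 9.13 to 9.44 over the 16 arrays. Srebf2, the driver of sterol genes, read 10.63 and 10.13 at 0 h and 11.10 and 10.19 at 6 h in naive cells of set 1. Insig1, the sterol-sensing anchor that is itself an SREBP target, read 11.33, 10.29, 11.56 and 10.53 on the same arrays. Stard4, a carrier of sterol between membranes, read 9.46, 8.50, 9.69 and 8.51. All 3 were higher on replicate 1 than on replicate 2 at both times, as the enzymes were. Insig2 changed by -0.18 ± 0.16 at 6 h.

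**Figure D2:**
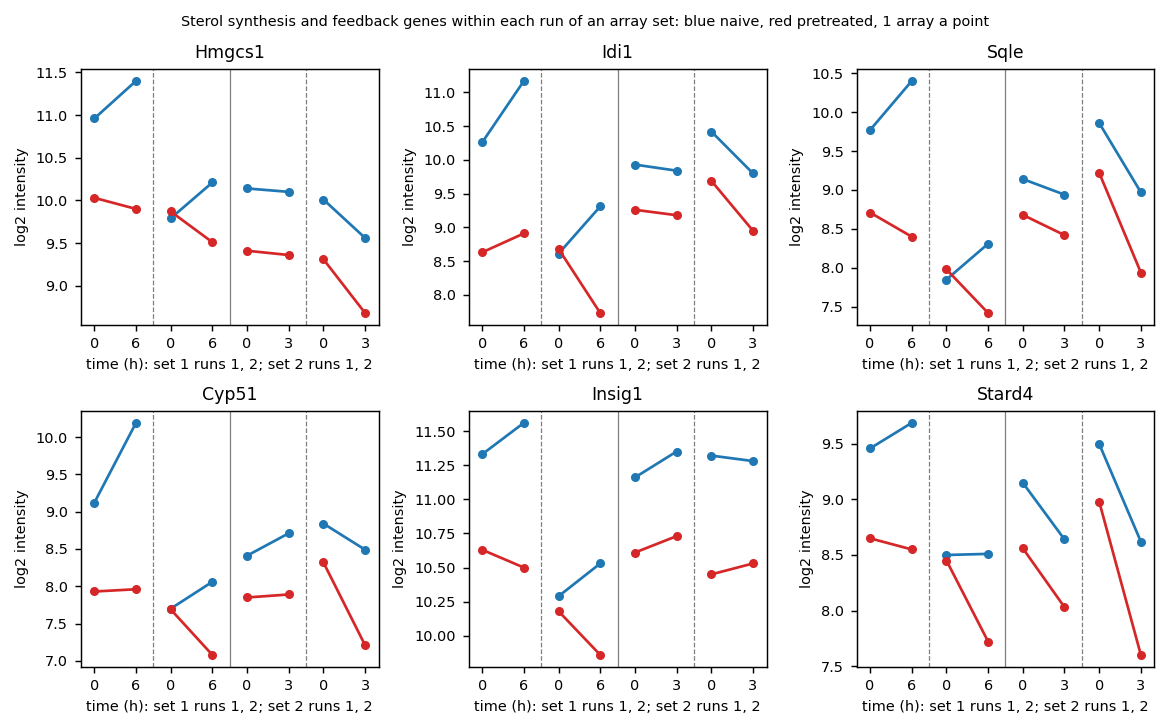
Log2 intensity of 6 sterol synthesis and feedback genes within each run of an array set, 1 array a point (blue naive, red pretreated). Lines join 0 h to the later time of the same run, dashed lines part the runs and the solid line parts the sets. For Idi1 the naive 0 h arrays of set 1 lie at 10.26 and 8.61, and at 6 h the pretreated array lies below the naive array in both runs.

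Of the 7 fatty acid genes 3 fell in naive cells at 6 h (Fads1, Fads2 and Acaca) and none rose, where 10.8% of all genes fell and 7.48% rose. Their median change was -0.49 against -0.01 over all genes. At 3 h, and in pretreated cells at either time, 1 of the 7 was called, Fads1, as lower. Of all genes 2.09% were called lower in naive cells at 3 h. In pretreated cells the share was 0.998% at 3 h and 2.76% at 6 h. Fads1 encodes the delta-5 desaturase of polyunsaturated fatty acids. In naive cells at 6 h it fell from 11.97 and 12.08 to 10.46 and 10.36 (-1.61 ± 0.10, 3.1-fold lower, adjusted p = 8.48e-07). At 3 h it fell from 11.72 and 11.63 to 10.90 and 11.01 (-0.71 ± 0.10, adjusted p = 0.00104). Replicates lay close together at each time, and the groups did not overlap. Fads2, the delta-6 desaturase encoded beside Fads1, fell from 9.91 and 9.19 to 8.76 and 7.61 at 6 h (-1.36 ± 0.36, 2.6-fold lower, adjusted p = 0.0174). Acaca, which makes malonyl-CoA, fell from 9.33 and 8.96 to 8.75 and 8.23 (-0.66 ± 0.20, adjusted p = 0.0416). A second Acaca feature gave -0.41, and with the mean of both features the call was lost. With replicate 1 at 0 h or replicate 2 at 6 h dropped, the calls of Fads2 (adjusted p up to 0.180) and Acaca (up to 0.337) were lost too.

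Fasn, which builds palmitate from malonyl-CoA, and the elongase Elovl6 were not called in any of the 9 comparisons without a block. With the array run as a block Elovl6 was called lower in naive cells at 3 h (adjusted p = 0.00295) and 6 h (0.0153). It was also called lower in pretreated cells at 3 h (0.0284), and Fasn in naive cells at 3 h (0.0287). The blocked fit called 4.88% of all genes lower in naive cells at 3 h and 3.26% in pretreated cells at 3 h. In naive cells at 6 h it called 4832 of 19938 genes, higher or lower. The 6 h call of Elovl6 is therefore not read as particular to this gene. Fasn read 9.85 and 10.22 in naive cells of set 2 at 0 h and 9.50 and 9.27 at 3 h, and Elovl6 9.44 and 10.06 against 8.88 and 9.14. Both were lower at 3 h on either array. Scd2, a stearoyl-CoA desaturase, read 9.87 and 7.64 on the naive 0 h arrays of set 1, the widest difference between replicates there (2.22), and 9.13 and 8.46 at 6 h. Scd1 was the only measured member whose mean over all arrays (5.35) was dim.

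Among the LXR genes the sterol exporter Abca1 fell at 6 h in naive cells, from 12.13 and 12.41 to 9.53 and 9.75 (-2.63 ± 0.37, 6.2-fold lower, adjusted p = 0.000296). In set 2 it read 10.90 and 9.69 at 0 h and 10.13 and 9.64 at 3 h, where the groups overlapped (-0.41 ± 0.37, adjusted p = 0.739). The partner exporter Abcg1 did not fall with it. It read 12.37 and 11.37 at 0 h and 12.31 and 12.40 at 6 h in set 1, and 11.94 and 9.78 at 0 h and 12.49 and 11.66 at 3 h in set 2 (1.22 ± 0.66, adjusted p = 0.447). Mylip, the ligase that marks the LDL receptor for decay, changed by -1.04 ± 0.40 at 3 h and -0.51 ± 0.40 at 6 h and was not called. The LXR-alpha gene Nr1h3 read 8.99, 8.50, 10.01 and 8.28 on the set 1 arrays of naive cells at 0 h and 6 h, with overlap.

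Abcd2, which carries very long-chain fatty acyl-CoA into peroxisomes, fell furthest of all members. At 6 h in naive cells it went from 10.82 and 10.95 to 6.76 and 7.91 (-3.55 ± 0.41, 11.7-fold lower, adjusted p = 8.01e-05). At 3 h it went from 10.13 and 9.25 to 7.69 and 7.54 (-2.08 ± 0.41, 4.2-fold lower, adjusted p = 0.00958). The later arrays lay below the 0 h arrays without overlap at both times. The 3 h call was lost without naive 0 h replicate 3 or either 3 h array (adjusted p up to 0.101).

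In all, 3 of 35 members were called in naive cells at 3 h, with 1 that rose and 2 that fell, where 3.37% of all genes rose and 2.09% fell. At 6 h 3 rose (Pmvk, Ebp and Ch25h) and 7 fell (Abcd2, Abca1, Fads1, Fads2, Dhcr7, Acaca and Mvk), where 7.48% of all genes rose and 10.8% fell. The share of 3 in 35 that rose is near that background, and nothing particular to the list is read from it. The median change of the 35 members was -0.24 at 3 h and 0.01 at 6 h, against 0.00 and -0.01 over all genes. At 3 h in naive cells 28 of 35 changes were negative. With the array run as a block in the fit 3 rose and 5 fell at 3 h (4.77% and 4.88% of all genes), which added Abcg1 and Ch25h to the rises and Fasn, Elovl6 and Mylip to the falls. Leaving out naive 3 h replicate 1 left 1 call at 3 h, and leaving out replicate 2 left 2.

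**Figure D3:**
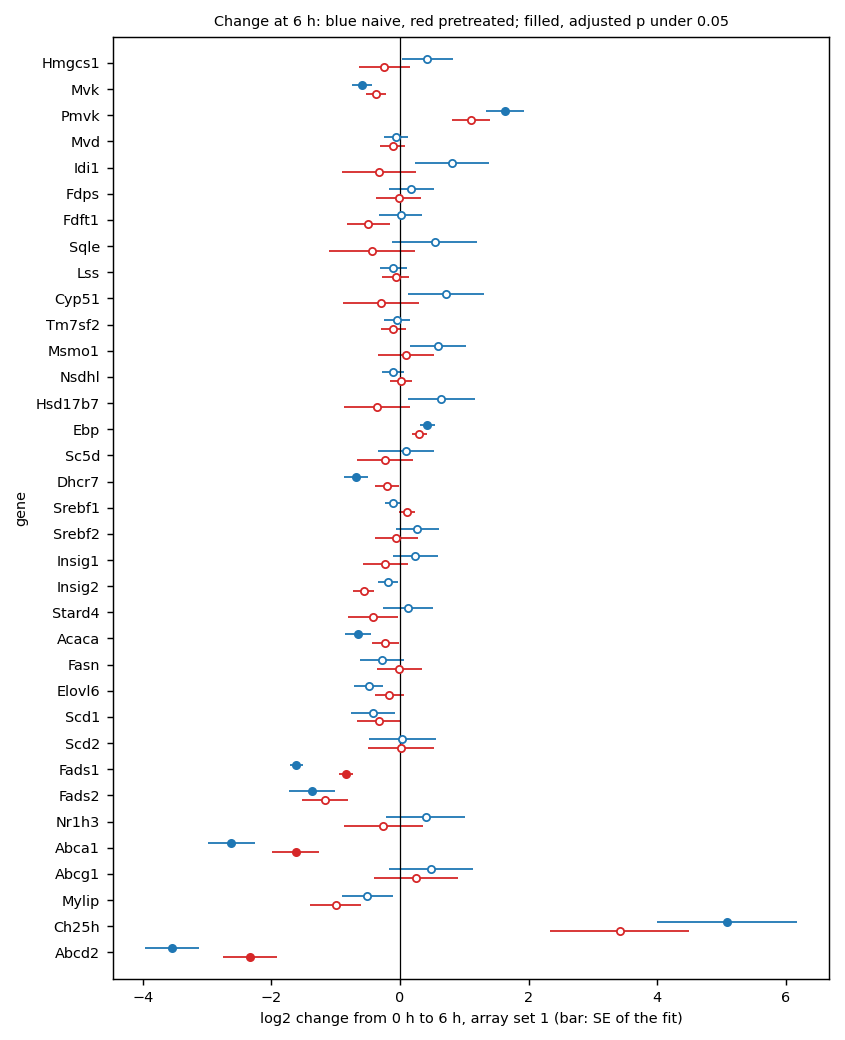
Log2 change from 0 h to 6 h in set 1 for the 35 measured members, in naive (blue) and pretreated (red) cells, with the SE of the fit as bars and filled points for an adjusted p under 0.05. Ch25h stands highest (5.09 and 3.42) and Abcd2 lowest (-3.55 and -2.33), and only Abcd2, Abca1 and Fads1 are filled in pretreated cells.

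In pretreated cells 2 members, Fads1 and Abcd2, were called lower at 3 h and 3 members, Fads1, Abcd2 and Abca1, at 6 h. No member was called higher at either time. At 3 h 1.86% of all genes were called higher and 0.998% lower, and at 6 h 2.89% higher and 2.76% lower. Of the 35 changes 6 were positive and 29 negative at 3 h, and 8 positive and 27 negative at 6 h. Ch25h was among the positive ones at both times. Abcd2 went from 9.32 and 8.81 to 7.64 and 6.94 at 3 h (-1.77 ± 0.41, adjusted p = 0.0403) and from 10.24 and 10.86 to 7.78 and 8.65 at 6 h (-2.33 ± 0.41, adjusted p = 0.00495). Neither time showed overlap. Fads1 went from 11.44 and 11.46 to 10.91 and 10.80 (-0.60 ± 0.10, adjusted p = 0.00775) and from 11.81 and 11.95 to 10.99 and 11.10 (-0.84 ± 0.10, adjusted p = 0.000444). Abca1 went from 11.82 and 12.05 to 10.00 and 10.63 at 6 h (-1.62 ± 0.37, adjusted p = 0.0204). Fads2 went from 9.53 and 9.08 to 8.35 and 7.92 and was not called (-1.17 ± 0.36, adjusted p = 0.0898).

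With the array run as a block, 2 members rose and 4 fell in pretreated cells at 3 h (3.12% and 3.26% of all genes), adding Pmvk and Ch25h to the rises and Stard4 and Elovl6 to the falls. At 6 h 2 rose and 6 fell (4.56% and 4.94%), adding the same 2 rises and the falls of Insig2, Fads2 and Mylip. The median change of the 35 members was -0.36 at 3 h and -0.23 at 6 h, against 0.00 and -0.03 over all genes. The Abcd2 call at 3 h was lost with any 1 of its 4 arrays left out (adjusted p up to 0.344), and that of Abca1 at 6 h without either 0 h array or without pretreated 6 h replicate 1 (up to 0.210). Fads1 at 3 h lost its call without pretreated 0 h replicate 4 or pretreated 3 h replicate 2 (up to 0.0769), and Abcd2 at 6 h without pretreated 0 h replicate 2 or pretreated 6 h replicate 1 (up to 0.0694).

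The next question was whether pretreatment left a mark on these genes before the second interferon. At 0 h no member was called between pretreated and naive cells (limma, n = 4 against 4), where 0.808% of all genes were called higher and 0.155% lower. An unadjusted p under 0.05 was found for 3 of 35. The share of all genes at that looser limit is not given here, so nothing is read from this count. The differences of 30 of 35 members were negative, with a median of -0.23 against 0.02 over all genes. In the run of naive replicate 2, however, 17 members were higher and 18 lower, with a median of -0.01. Lower in all 4 runs were 14 of 35, against 10.4% of all genes. The members share arrays, so their common sign is a description and not a count of independent results. Insig1 read 10.63, 10.18, 10.61 and 10.45 in pretreated cells and 11.33, 10.29, 11.16 and 11.32 in naive cells, so that 3 naive arrays were above all pretreated ones and the other was not. Its difference was -0.56 ± 0.25 (adjusted p = 0.604). Idi1 differed by -1.63 and 0.07 in the runs of set 1 and by -0.67 and -0.73 in those of set 2. Hmgcs1 differed by -0.93, 0.08, -0.73 and -0.70 in the same order. Both enzymes were lower in pretreated cells in 3 of the 4 runs and about level in the run of naive replicate 2. Blocking on the run called 2 members lower, Insig1 (adjusted p = 0.0148) and Abca1 (-0.49 ± 0.12, adjusted p = 0.0458), where 1.78% of all genes were then higher and 1.65% lower.

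At 3 h no member was called between pretreated and naive cells, with or without the block. Over all genes 0.01% were called higher and 0.00502% lower, so this comparison called almost nothing. Of the 35 members 3 had an unadjusted p under 0.05. The share of all genes at that looser limit is not given here, so nothing is read from this count. The signs leaned one way. The differences of 31 of 35 members were negative with a median of -0.34, against 0.00 over all genes, and 15 of the 17 synthesis enzymes were lower in both runs, where 29.5% of all genes were. Cyp51 read 7.89 and 7.21 in pretreated cells against 8.71 and 8.49 in naive cells (-1.05 ± 0.59). Msmo1, the sterol methyl oxidase that acts after Cyp51, read 10.16 and 9.40 against 10.75 and 10.42 (-0.80 ± 0.43), and Hmgcs1 9.36 and 8.68 against 10.10 and 9.56 (-0.81 ± 0.40). The pretreated arrays of these 3 genes were below the naive arrays, but no difference was called. These enzymes share arrays, so their common sign is a description and not a count of independent results.

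At 6 h Fads1 was the only member called between pretreated and naive cells, where 0.431% of all genes were higher and 0.271% lower. It was higher in pretreated cells, at 10.99 and 11.10 against 10.46 and 10.36 (0.63 ± 0.10, 1.6-fold, adjusted p = 0.0229). Leaving out naive 6 h replicate 1 or either pretreated 6 h array ended this call (adjusted p up to 0.272). Most sterol enzymes differed the other way without being called, 5 of 6 in the mevalonate pathway and 8 of 11 from squalene on. Mvk (9.21 and 8.99 against 8.98 and 8.74) and Dhcr7 (8.96 and 8.62 against 8.36 and 8.26) were higher in pretreated cells in both runs. The next 3 genes are among those that were lower. Idi1 read 8.91 and 7.73 against 11.17 and 9.31 (-1.92 ± 0.58, adjusted p = 0.160), Cyp51 7.96 and 7.08 against 10.19 and 8.06 (-1.61 ± 0.59, adjusted p = 0.256) and Sqle 8.40 and 7.42 against 10.40 and 8.31 (-1.44 ± 0.66, adjusted p = 0.404). The higher pretreated Sqle array overlapped the lower naive array, and those of Idi1 and Cyp51 stayed below it.

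Within the runs the 6 h differences were -2.26 and -1.58 for Idi1, -2.23 and -0.98 for Cyp51, -2.00 and -0.88 for Sqle and -1.50 and -0.69 for Hmgcs1. Over all 17 enzymes the medians were -0.75 and -0.11, against 0.07 and -0.02 over all genes, with 3 and 6 of 17 higher. The differences were larger in the run of naive replicate 1, whose synthesis enzymes were also high at 0 h. With the run as a block 7 members were called lower in pretreated cells, among them Idi1 (adjusted p = 0.0132), Insig1 (-0.86 ± 0.15, adjusted p = 0.0115), Hmgcs1, Sqle, Cyp51, Srebf2 and Stard4. Another 3 were called higher, Fads1, Abca1 (0.67 ± 0.17, adjusted p = 0.0487) and Abcd2 (0.88 ± 0.21, adjusted p = 0.0421), where 2.79% of all genes were higher and 1.45% lower. Without naive 6 h replicate 2, and with no block, some members were called lower, but the naive side was then replicate 1 alone. On that array 16 of the 17 enzymes were higher than on replicate 2. More of all genes were called as well, so nothing is read from these calls. Without any other array of this comparison none was called. Of the 17 enzymes 10 were lower in both runs, where 26.7% of all genes were, and 2 were higher in both, where 32.9% were.

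The difference between the responses was tested as the pretreated change minus the naive change. No member was called at 3 h (0 of 35 at an unadjusted p under 0.05), where none of all genes rose (0%) and 0.0802% fell, or at 6 h (1 of 35), where 0.0301% rose and 0.115% fell. These shares of all genes are calls at the adjusted limit and are no measure for the unadjusted counts. The single member below an unadjusted 0.05 at 6 h was Fads1, whose fall was shallower in pretreated cells by 0.77 ± 0.15 (adjusted p = 0.0788). With the run as a block it was called (adjusted p = 0.0308), where 0.808% of all genes rose and 0.707% fell. For Abcd2 the difference was 1.21 with a 95% confidence interval from -0.06 to 2.49, and for Abca1 1.01 (-0.12 to 2.13). For Idi1 it was -1.14 (-2.92 to 0.65). These intervals do not show that the responses were alike.

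**Figure D4:**
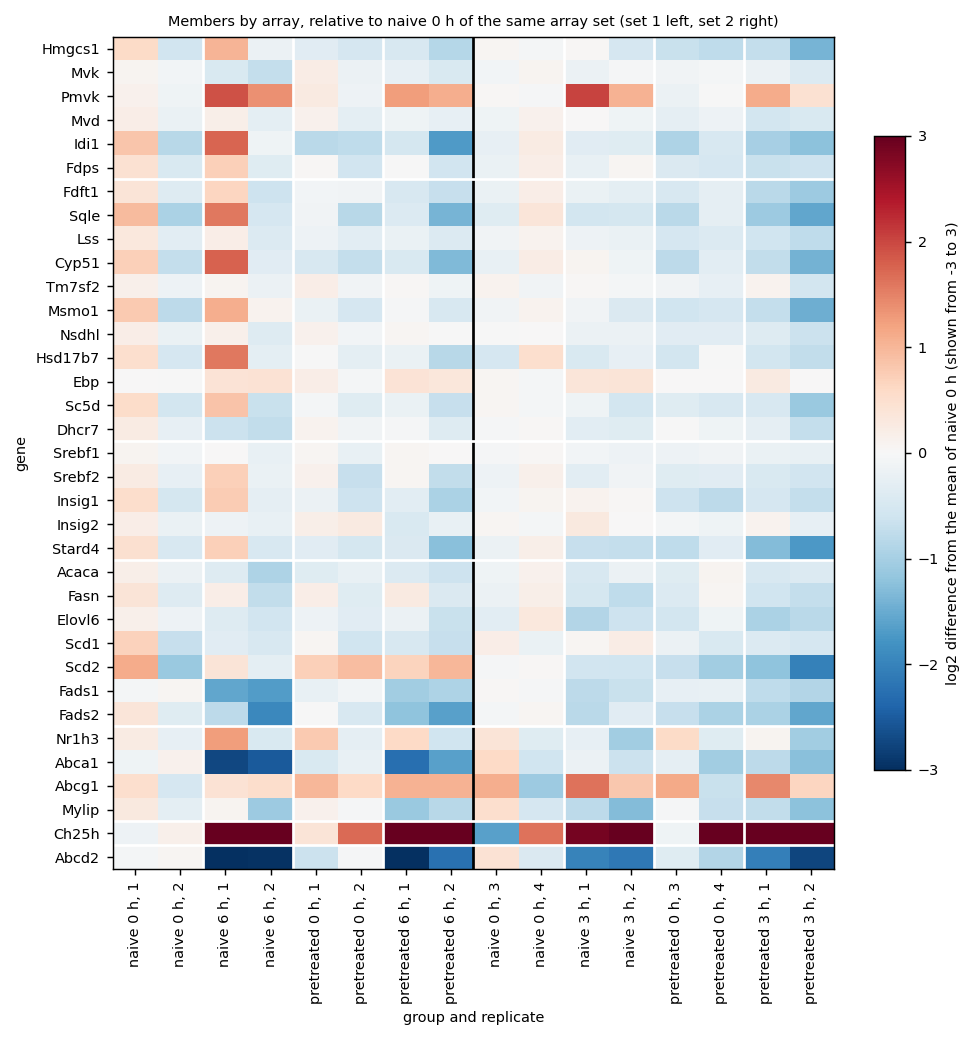
Log2 difference of each of the 35 measured members on each of the 16 arrays from the mean of the naive 0 h arrays of the same set, with colours limited to -3 and 3, genes in order of their roles (white lines) and set 1 left of the black line. The naive replicate 1 columns of set 1 are redder than those of replicate 2 over the sterol enzymes (median difference 0.77 at 0 h), and Ch25h and Abcd2 stand out in opposite colours after interferon.

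Genes next to the members in these pathways were taken from lists written with earlier results of these data known. The counts that follow stand beside 7.48% of all genes that rose and 10.8% that fell in naive cells at 6 h, and support nothing about the lists. Of 13 measured genes of oxysterol and cholesterol ester handling, 1 rose and 4 fell in naive cells at 6 h. Gpr183, the receptor for an oxysterol made from 25-hydroxycholesterol, fell by 2.60 on the log2 scale (SE 0.19, adjusted p = 1.98e-06), and Hsd3b7, which clears such oxysterols, rose by 0.66 (SE 0.15, adjusted p = 0.00691). Ch25h thus rose at 6 h on arrays where Gpr183 fell. Gpr183 also fell in naive cells at 3 h (-2.38 ± 0.19), and after interferon in pretreated cells, with changes of -1.93 ± 0.19 at 3 h and -2.05 ± 0.19 at 6 h. The sterol transfer protein Gramd1b fell in all 4 as well, by 1.42 in naive cells at 6 h, and the lipid droplet coat protein Plin2 fell by 1.14 there. Of 14 measured SREBP targets and machinery genes outside the members 1 rose and 6 fell in naive cells at 6 h, led by the phosphatidate phosphatase Lpin1 (-2.96 ± 0.42, adjusted p = 0.000339), and none was called at 3 h. Of 9 LXR partners and targets 3 fell at 6 h, with the LXR partner Rxra at -1.44 ± 0.26 and the lysosomal sterol transporter Npc1 at -1.05 ± 0.18. Of 18 genes of fatty acid oxidation and peroxisomes 1 rose and 5 fell, with the fatty acid importer Slc27a1 at -1.39 ± 0.19 and Hadhb, a subunit of the mitochondrial trifunctional protein, at 0.75 ± 0.16. The medians of these lists at 6 h were -0.43, -0.39, -0.29 and -0.27, against -0.01 over all genes.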

How the data were processed

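RNA of bone-marrow derived macrophages was hybridised to 16 Affymetrix mouse gene arrays with biotin labelling, per the labels. The authors deposited log2 intensities, and the sources used here name no step of background correction, normalization or summary. Of 35557 features, 21789 had 1 gene symbol in the platform annotation, 1621 had several and 12147 had none, and the symbols stood for 19938 genes. Several features mapped to 999 genes, and the brightest by mean stood for the gene (3 members have 2). The arrays' number, 2 per group and set, limits the precision.

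A single limma fit (version 3.58.1, R 4.3.3) had 8 means of group within set, 8 residual and 4.26 prior degrees of freedom, and 9 comparisons. A gene was called at a Benjamini-Hochberg adjusted p under 0.05 over all genes. The fit was tested on simulated data. The members and lists were chosen with earlier results of these data known. The text names all measured members, up to 4 called genes of each other list in a comparison, and Cxcl9, Socs1 and Irf1 as a check of interferon. The alternatives were another term for the set, a block for the array run, a filter at a mean of 6.5, the mean of features, a further quantile normalization, another variance model, array weights, a size limit of 1 and each array left out. Motifs were searched with Python 3.11.15 in RefSeq windows of GRCm38.p6.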

Additional observations from a re-analysis of the deposited data

Results flagged for a closer look

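In the groups of 4 arrays (0 h cells of both sets) 6 of 70 gene and group pairs had 1 array far from the other 3, where about 3.5 are expected at 1 in 20. The measure is the gap to the nearest array as a share of the group's range, set against Dixon's 95% critical value. For Ch25h in naive cells the gap was 0.910, from the array at 9.45 against 6.05 to 6.35. The pretreated 0 h array of the same run was high too, at 10.84 against 7.68 on the other pretreated 0 h array of set 2. Scd2 in naive cells gave 0.927, from the array at 7.64, and Insig1 in naive cells 0.838, from the array at 10.29. Both low values are on naive 0 h replicate 2, on which all 17 synthesis enzymes were lower than on replicate 1. In pretreated cells Srebf2 gave 0.905, from the array at 9.69, Ebp 0.944, from that at 9.94, and Mvk 0.886, from that at 9.67. The 4 arrays of a group come from 2 sets whose column medians differ, and the part of the set in these gaps was not tested.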

How the results depend on the processing

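Among the 4261 values recomputed under other settings, none reversed its sign where the main or the other fit made a call. A pair called in neither fit could not count as reversed, and only 19 of 315 pairs were called in the main fit. The size limit reuses the main values. Of the 19 calls of members, 7 (36.8%) were kept with any 1 array left out: Pmvk, Fads1, Abca1, Ch25h and Abcd2 in naive cells at 6 h, and Fads1 in naive cells at 3 h and in pretreated cells at 6 h. Of the 19, 17 were kept under all other settings but the size limit. Acaca in naive cells at 6 h was lost with the mean of features and with quantile normalization, and Abcd2 in pretreated cells at 3 h with array weights, another variance model and quantile normalization. The cause was not tested.

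Counts of called members moved as listed below, and counts over all 19938 genes moved as well. For naive cells at 3 h, 1088 genes became 1410 with the additive set term, 1578 with array weights and 1925 with the block. For pretreated against naive cells at 6 h, 140 genes became 845 with the block. The moves are therefore not read as a result about the members. In naive cells at 3 h the count of 3 became 5 with an additive set term, 5 with array weights and 8 with the run as a block, and 1 to 3 with an array left out. In naive cells at 6 h the count of 10 became 11 with the block (Elovl6 added), 9 with the mean of features or quantile normalization, 6 with the size limit, and 7 to 10 with an array left out. In pretreated cells at 3 h the count of 2 became 1 with array weights, another variance model, the size limit or quantile normalization, 6 with the block, and 0 to 1 with an array left out. In pretreated cells at 6 h the count of 3 became 8 with the block and 5 with quantile normalization, and 1 to 3 with an array left out. Between pretreated and naive cells the count of 0 at 0 h became 2 with the block. At 6 h the count of 1 became 10 with the block, 0 with the size limit, and 0 to 5 with an array left out. For the difference of the responses at 6 h the count of 0 became 1 with the additive term, the block or quantile normalization.

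The block uses title positions, which the labels do not tie to a culture, animal or day. No replicate number in the labels pairs arrays. Of 12 pairs of groups within a set, 11 had differences between their 2 arrays that correlated across genes over 0.1 (0.082 to 0.662). The block gained 27 calls of members and lost 0. Where 1 array of a pair is left out, the other is assumed to vary like the rest. With 2 arrays per group and set, changes as small as those of most sterol enzymes are not separated from the spread between arrays, and Ch25h starts near the dim limit.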
